A study of Mus musculus with 16 samples.

Results

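Described here are 10 genes for the proteins that join brain endothelial cells to each other or sit on their surface as adhesion molecules, Pecam1, Cdh5, Cldn5, Ocln, Tjp1, Esam, Jam2, F11r, Podxl and Icam2, as the count table of a mouse brain RNA-seq experiment gives them. They were selected by gene symbol among 55487 genes, and all 10 were present and passed the filter on low counts, at least 10 reads in at least 4 mice, which kept 18609 genes. Bulk brain RNA was sequenced from 16 female mice on a C57BL/6J background, 4 per group of the 2 genotypes and 2 treatments. The CETPtg animals have a transgene for cholesteryl ester transfer protein (CETP), a plasma lipid transfer protein that mice otherwise lack. APPtg/CETPtg mice carry in addition a human amyloid precursor protein transgene with Swedish and Indiana mutations, which the Thy1 promoter drives in neurons. Every group thus carried the CETP transgene, and every mouse ate a diet with 1% cholesterol, begun at 11 weeks of age. Evacetrapib, a CETP inhibitor, was injected daily at 30 mg per kg for 11 weeks, and the vehicle groups received the Kolliphor EL and glucose solution alone. The question behind the comparison was how CETP inhibition changes the brain, with and without the APP transgene.

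Endothelial cells line the vessels of the brain and, held together by continuous junctions, form the blood-brain barrier. Adherens junctions are built on the cadherin of endothelial cells, whose tail is held by catenins. Tight junctions are strands of claudins and occludin that zonula occludens scaffolds anchor inside the cell, and immunoglobulin-like adhesion molecules of the JAM family and Pecam1 stand beside them. Podxl and Icam2 lie on the open cell surface, where the first is a sialomucin and the second a ligand for leukocyte integrins.

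The evacetrapib comparison is a description. Pecam1, Cdh5 and Podxl were among the genes the study selected on this contrast, and the list was drawn up with those results known, so no test is read from it. The comparison of genotypes and the difference between the genotypes in the evacetrapib effect are not the contrast on which the study selected those genes, and they are tested. The gene lists were still chosen with earlier results of these data known, so the independence of these tests from the choice is not assured. Levels are given as CPM, the usual unit of reads on a gene relative to all reads counted in that mouse, with library sizes scaled by the trimmed mean of M values (TMM), and errors of group means are SDs with n = 4 mice. In bulk RNA, a larger number of endothelial cells, more RNA per cell and expression in other cells cannot be told apart.

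Reads counted on genes ranged from 28626139 to 46800787 in the CETPtg mice and from 21391335 to 55453789 in the APPtg/CETPtg mice, where vehicle mouse S8 was the deepest. The medians were 36043314.5 and 23689163, and every APPtg/CETPtg mouse except S8 was below all CETPtg mice. Depth thus largely went with genotype, and its part in the genotype comparison was not tested. The members had at least 29 reads in any mouse, the lowest for Icam2. The vehicle mice S4 and S8 stood above their groups in several members, with mean standardised deviations of 1.17 and 1.12 over the 10 genes, and vehicle mouse S5 stood lowest at -1.21. On the index plate the genotypes occupied separate columns and the treatments separate rows, so position and group cannot be told apart.

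Upstream sequence was at hand in RefSeq for 4 of the 10 genes, Cldn5, Ocln, Tjp1 and F11r. The 250 bases before the start are shown for Cldn5, the member with the largest difference between treatments, for F11r, the one with the smallest, and for Tjp1, the one that passed the test between genotypes. They are on the coding strand in build GRCm38.p6, with matches to the GC box of SP1, GGGCGG on either strand, in capitals.
Cldn5 (chr16:18776597-18776846, plus strand): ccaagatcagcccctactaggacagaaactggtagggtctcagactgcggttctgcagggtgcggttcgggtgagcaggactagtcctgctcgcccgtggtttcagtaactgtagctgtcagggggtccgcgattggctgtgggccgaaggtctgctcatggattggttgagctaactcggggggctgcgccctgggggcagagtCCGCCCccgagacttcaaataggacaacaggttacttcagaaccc
F11r (chr1:171437311-171437560, plus strand): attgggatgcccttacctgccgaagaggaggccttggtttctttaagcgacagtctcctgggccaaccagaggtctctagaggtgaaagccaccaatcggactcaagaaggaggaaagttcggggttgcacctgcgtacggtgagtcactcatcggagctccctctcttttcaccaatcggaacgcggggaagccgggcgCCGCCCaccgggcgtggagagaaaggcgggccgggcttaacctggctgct
Tjp1 (chr7:65371245-65371494, minus strand): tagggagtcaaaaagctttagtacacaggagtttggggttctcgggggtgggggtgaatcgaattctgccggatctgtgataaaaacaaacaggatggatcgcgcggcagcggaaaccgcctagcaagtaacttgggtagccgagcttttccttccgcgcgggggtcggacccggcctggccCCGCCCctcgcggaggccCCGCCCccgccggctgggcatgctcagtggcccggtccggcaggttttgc
The GC box occurred in every window of the 4 genes and in 32.7% of 32851 promoter windows of the mouse genome. G and C made up 59.6% of the Cldn5 window, 60.0% of that of F11r and 63.2% of that of Tjp1, against a median of 52.4% over all windows. ETS motifs, looked for as AGGAAG (in 29.5% of all windows) and CCGGAA (12.03%), the forkhead motif TGTTTA (12.03%), the GATA motif AGATAA (9.99%) and a TATA box, TATAAA (12.4%), had no match in the windows shown, on either strand. Of these motifs, CCGGAA matched at position -227 in an Ocln window that is not shown, at 100552719 to 100552968. The Tjp1 start is inside the gene as GENCODE M21 annotates it, where the gene runs from 65296165 to 65527781 on chromosome 7. The bases after that start matched 0 of its transcripts there. The F11r window, which ends at 171437560, also reaches into the annotated gene, which begins at 171437535.

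Cdh5 and Pecam1 encode the receptors by which endothelial cells bind their own kind. Cdh5 (VE-cadherin, ENSMUSG00000031871, chromosome 8, 104101625 to 104144511, GRCm38) is the cadherin of the adherens junction. In CETPtg mice it was at 20.0, 16.7, 17.9 and 17.0 CPM under evacetrapib and at 13.4, 14.3, 14.9 and 17.0 CPM under vehicle. In APPtg/CETPtg mice it was at 16.9, 14.8, 19.7 and 19.1 CPM under evacetrapib and at 11.2, 12.6, 12.8 and 16.1 CPM under vehicle. The highest vehicle mouse, S4 or S8, reached into the range of the treated mice in each genotype. The log2 fold change was 0.33 (SE 0.0764), or 1.26-fold, over both genotypes.

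Pecam1 (CD31, ENSMUSG00000020717, chromosome 11, 106654217 to 106750628), an immunoglobulin-like receptor at cell borders that platelets and leukocytes carry too, gave a similar picture. It was at 24.5, 21.9, 22.2 and 20.0 CPM in the treated and 17.2, 16.4, 15.9 and 21.1 CPM in the vehicle CETPtg mice. The treated APPtg/CETPtg mice were at 20.6, 23.4, 24.2 and 24.2 CPM and the vehicle ones at 17.3, 18.1, 17.9 and 22.2 CPM. Again only S4 and S8 among the vehicle mice overlapped the treated range of their genotype. The log2 fold change over both genotypes was 0.31 (SE 0.0657), with 0.33 in CETPtg animals and 0.28 in APPtg/CETPtg animals.

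Cldn5 (ENSMUSG00000041378, chromosome 16, 18776847 to 18778262, a gene of 1 exon), the main claudin of the brain endothelium, had the largest difference of the 10, 0.43 (SE 0.106) or 1.35-fold. CETPtg mice had 32.6, 29.2, 27.1 and 35.2 CPM with the drug and 22.3, 24.9, 24.3 and 28.9 CPM without it. APPtg/CETPtg mice had 38.1, 33.6, 50.3 and 43.9 CPM with the drug and 18.7, 32.0, 26.9 and 34.7 CPM without it. Both ranges overlapped, and the spread in the vehicle APPtg/CETPtg mice was wide, with a mean of 28.1 ± 7.04 CPM.

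Occludin was at a smaller value than the claudin. Ocln (ENSMUSG00000021638, chromosome 13, 100496507 to 100552718), the other strand protein of the tight junction, differed by 0.11 (SE 0.0823), with means of 6.91 ± 0.896 and 6.26 ± 0.926 CPM in treated and vehicle CETPtg mice and 6.29 ± 0.495 and 5.98 ± 0.476 CPM in treated and vehicle APPtg/CETPtg mice. Tjp1 (ZO-1, ENSMUSG00000030516), the scaffold that ties both to the cytoskeleton and that many other brain cells express, differed by 0.03 (SE 0.0289) over both genotypes.

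The 3 JAM-type molecules were at 0.10 or less in the pooled comparison. Esam (ENSMUSG00000001946, chromosome 9, 37528078 to 37538319), an adhesion molecule of endothelial cells and platelets, ranged from 12.3 to 15.3 CPM in the treated and from 11.1 to 14.9 CPM in the vehicle CETPtg mice, while APPtg/CETPtg mice had 14.9 ± 0.946 and 13.9 ± 1.22 CPM. It differed by 0.09 (SE 0.0647) over both genotypes. F11r (JAM-A, ENSMUSG00000038235, chromosome 1, 171437535 to 171464603), which platelets and leukocytes also carry, ranged from 6.51 to 10.4 CPM, both ends being vehicle APPtg/CETPtg mice, and differed by 0.01 (SE 0.0848). Jam2 (JAM-B, ENSMUSG00000053062, chromosome 16, 84774123 to 84825928) differed by 0.10 (SE 0.0944), a value that joined opposite signs in the genotypes. Its CPM were 46.3, 41.6, 42.9 and 49.3 in treated and 43.1, 46.8, 50.7 and 52.3 in vehicle CETPtg mice. They were 53.3, 34.5, 55.4 and 48.9 in treated and 32.8, 47.0, 37.3 and 38.2 in vehicle APPtg/CETPtg mice. The treated mouse F was low for its group, and the groups overlapped in both genotypes.

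Of the surface molecules, Podxl (podocalyxin, ENSMUSG00000025608, chromosome 6, 31519488 to 31563981) had the smaller error. It was at 47.0, 43.5, 45.7 and 45.6 CPM in treated and 36.0, 36.3, 36.6 and 45.0 CPM in vehicle CETPtg mice. In APPtg/CETPtg mice it was at 42.7, 42.9, 43.5 and 42.1 CPM with the drug and 32.1, 37.5, 36.4 and 40.7 CPM without it, with no overlap between the groups. The log2 fold change was 0.23 (SE 0.0496) over both genotypes, with 0.24 in CETPtg animals and 0.22 in APPtg/CETPtg animals.

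Icam2 (ENSMUSG00000001029, chromosome 11, 106377656 to 106388075) had the fewest reads, 29 to 119 per mouse. Vehicle and treated CETPtg mice were alike in level, at 1.66 ± 0.305 and 1.71 ± 0.331 CPM. In APPtg/CETPtg mice the treated animals had 2.30, 2.15, 3.0 and 2.41 CPM and the vehicle animals 1.32, 1.76, 1.96 and 2.14 CPM, which did not overlap, although the nearest mice were at 2.15 and 2.14 CPM. The log2 fold change over both genotypes was 0.23 (SE 0.136).

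**Figure D1:**
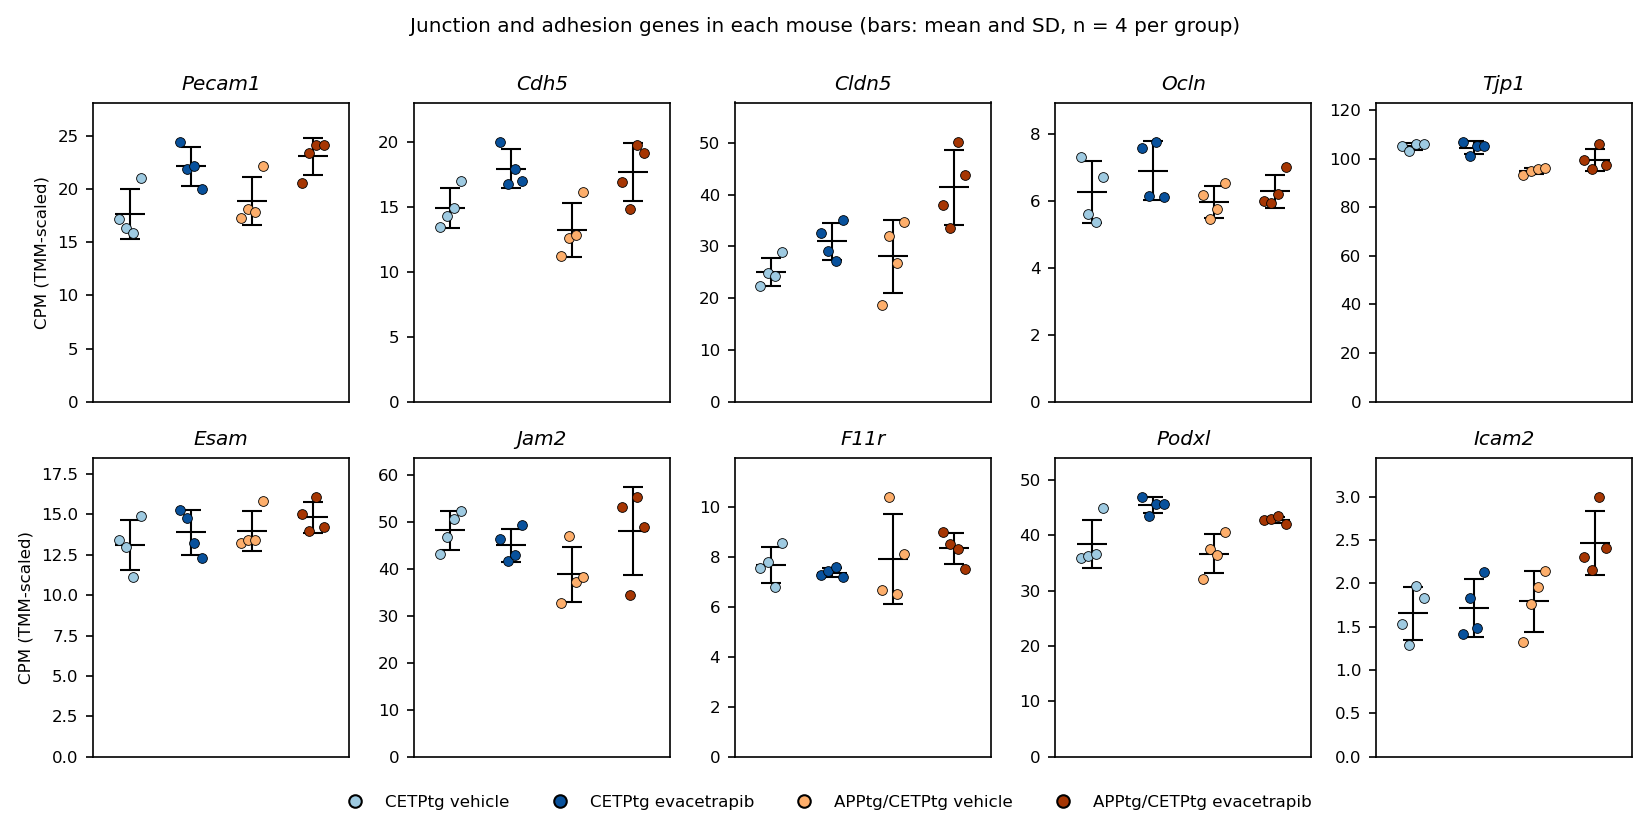
Level of each of the 10 genes in each mouse, in TMM-scaled CPM on an axis from 0, by genotype and treatment, where points are mice and bars the mean and SD of 4 mice. The treated mice are above most vehicle mice for Pecam1, Cdh5, Cldn5 and Podxl. For Tjp1 the 4 vehicle APPtg/CETPtg mice are at 93.1 to 96.0 CPM.

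Over both genotypes the 10 values were all above 0, ranging from 0.01 to 0.43 around a median log2 fold change of 0.17, while the median of the 18609 genes was 0.00, 49.2% of them were above 0 and 90% lay between -0.24 and 0.24. By the quasi-likelihood test of edgeR none of the 10 passed an adjusted p of 0.05 with the study's fold threshold, against 2 genes of all tested (0.0107%), and 4 members (Pecam1, Cdh5, Cldn5, Podxl) had an unadjusted p under 0.05, as did 7.91% of all genes. DESeq2 is the tool the study named for its own calls. Here the Wald test of DESeq2 called 3 of the members, Pecam1, Cdh5 and Podxl, among 56 genes (0.313%), and limma-voom called none. Since the study chose 3 members on this contrast, nothing is read from these counts. Without S4 edgeR called Podxl (4 genes in all), and without S8 it called Pecam1 (8 genes in all).

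Within CETPtg mice 7 of the 10 were above 0, with a median of 0.12, no gene at all was called (0%), and none of the members had treated mice all above the vehicle mice, as 2.10% of genes did. Within APPtg/CETPtg mice all 10 were above 0, with a median of 0.25. None was among the 8 genes called there (0.0430%), and Podxl and Icam2 were the 2 whose treated mice all exceeded the vehicle mice, as in 1.97% of genes. No member had separate groups in both genotypes, which 0.0699% of genes had, nor had any member all 8 treated mice above all 8 vehicle mice, as 0.0376% of genes did.

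**Figure D2:**
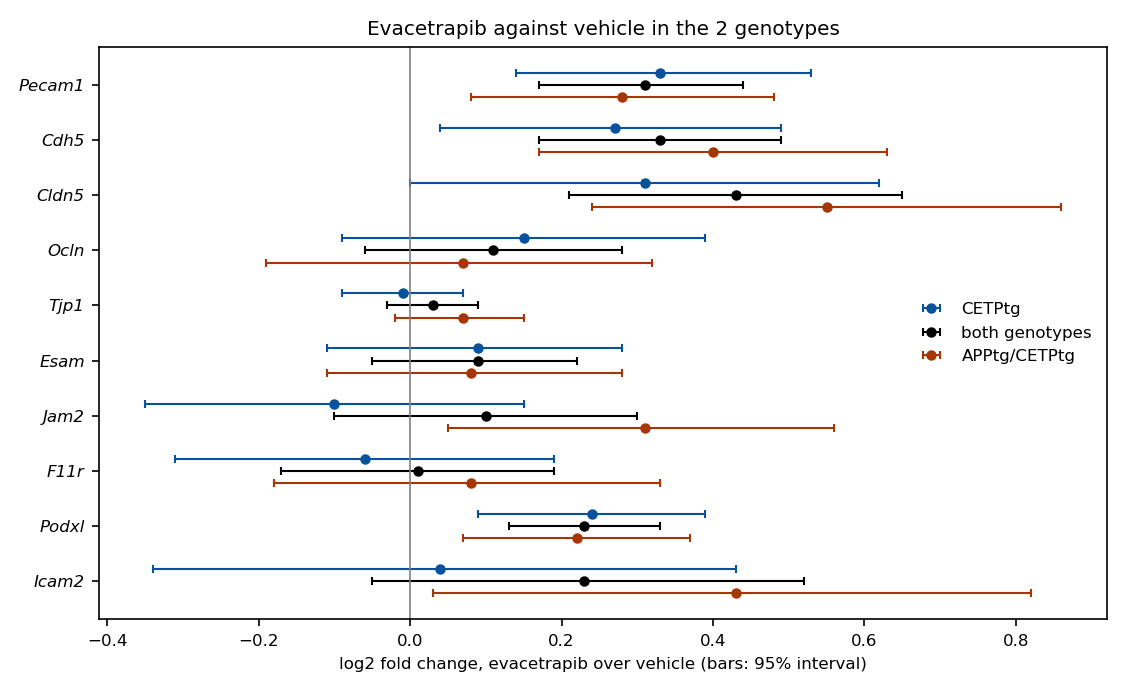
Log2 fold change of each gene, evacetrapib over vehicle, within CETPtg mice (blue), over both genotypes (black) and within APPtg/CETPtg mice (brown), with 95% intervals of the edgeR fit. The estimates for Pecam1, Cdh5, Cldn5 and Podxl are above 0 in each genotype, and those for Jam2 lie on opposite sides of 0, at -0.10 and 0.31.

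By kind of protein encoded, the estimates were as follows, with no test of one gene against another. Of the strand proteins, Cldn5 was at 0.43 and Ocln at 0.11. Of the immunoglobulin-like proteins, Pecam1 was at 0.31 and Esam, Jam2 and F11r at 0.10 or less. A reference of 22 other endothelial markers, which share no gene with the 10, had a mean difference in log2 CPM of 0.17, with 0.15 in CETPtg animals and 0.20 in APPtg/CETPtg animals. Of that list 19 of 22 were above 0 and 15 had an unadjusted p under 0.05, with none called. Relative to this mean, Cldn5 was higher by 0.27, Cdh5 by 0.17, Pecam1 by 0.14, Icam2 by 0.08 and Podxl by 0.07. F11r was at -0.15, Tjp1 at -0.14, Esam at -0.08, Jam2 at -0.07 and Ocln at -0.06 on the same scale. The members above the reference in both genotypes were Pecam1, Cdh5, Cldn5 and Podxl. In CETPtg and APPtg/CETPtg mice Pecam1 was at 0.19 and 0.10 (within-group SD 0.08) and Cdh5 at 0.12 and 0.22 (SD 0.11). Cldn5 was at 0.16 and 0.39 (SD 0.21) and Podxl at 0.10 and 0.03 (SD 0.07). Since the study selected Pecam1, Cdh5 and Podxl on this contrast, nothing is read from their place.

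Markers of other cells of the vessel wall are set beside these values. All 11 pericyte markers were above 0, with a median of 0.15, none called, and their summed level was 247 to 261 CPM in treated and 229 to 257 CPM in vehicle CETPtg mice, and 249 to 277 and 194 to 244 CPM in the APPtg/CETPtg mice. Of 9 smooth muscle markers 8 were above 0 and 1, Myh11, was called, with a median of 0.33 and sums of 66.7 to 80.6 and 56.6 to 69.9 CPM in treated and vehicle CETPtg mice and 72.6 to 81.3 and 58.2 to 69.9 CPM in the APPtg/CETPtg mice. Fibroblast and meningeal markers, were above 0 in 7 of 9, with a median of 0.19 and none called. In CETPtg mice 4 of 9 were above 0, with a median of -0.01 and sums of 63.3 to 74.3 and 59.0 to 80.6 CPM in treated and vehicle animals. In APPtg/CETPtg mice 9 of 9 were above 0, with a median of 0.40 and sums of 73.8 to 80.6 and 47.9 to 67.3 CPM, and the difference between the genotypes passed for none of the 9. The 8 astrocyte markers had a median of 0.07, the 8 neuron markers -0.01, the 8 oligodendrocyte markers -0.01, the 8 microglia markers 0.00 and the 6 ependymal markers -0.06, with no call in any of them. In CETPtg mice 4 of 8 astrocyte markers were above 0, with a median of 0.00 and 0 with an unadjusted p under 0.05 by edgeR. In APPtg/CETPtg mice 6 of 8 were above 0, with a median of 0.12 and 4 under that p.

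Choroid plexus epithelium has tight junctions of its own, and over both genotypes its 9 markers were all below 0, with a median of -0.45. In CETPtg mice 3 of 9 were above 0, with a median of -0.10. Sums there were 15.9 to 127 CPM in treated and 16.7 to 172 CPM in vehicle animals. In APPtg/CETPtg mice 1 of 9 was above 0, with a median of -1.22. Their sums were 15.3 to 31.3 CPM in treated and 18.9 to 471 CPM in vehicle animals. The 7 blood and platelet markers tested, of 8 listed (Ppbp had at most 7 reads in a mouse), had a median of 0.05, with 0.39 in CETPtg and -0.39 in APPtg/CETPtg mice, with sums of 95.6 to 291 and 94.8 to 162 CPM in treated and vehicle CETPtg mice and 74.5 to 141 and 99.6 to 234 CPM in treated and vehicle APPtg/CETPtg mice. The part of these cell types in the differences of the 10 genes was not tested.

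Other proteins of the junctions, both inside the cell and in its membrane, were taken as partners of the 10. Of 9 adherens junction partners 6 were above 0, with a median of 0.04 and none called. The catenins that bind the cadherin tail were at -0.05 (SE 0.0316) for Ctnnb1 and 0.08 (SE 0.0583) for Ctnnd1, and the nectin adaptor Afdn at -0.01. Ptprb, the endothelial phosphatase that acts on VE-cadherin, was at 0.23 (SE 0.0627). Of 15 tight junction partners 5 were above 0, with a median of -0.02 and none called. They include the cingulin-like Cgnl1 at 0.13 (SE 0.0742), Cldn12 at -0.03 (SE 0.0429), Jam3 at -0.01 (SE 0.0425) and Lsr, the angulin of tricellular contacts, at 0.23 (SE 0.105).

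Of 12 surface adhesion partners 10 could be tested, since the selectins Sele and Selp had at most 6 and 7 reads in a mouse. None was called, 8 were above 0 and the median was 0.10. The lectin-like Cd93 was at 0.49 (SE 0.133), with 6.47 ± 0.437 and 4.96 ± 1.10 CPM in treated and vehicle CETPtg mice and 5.6 ± 1.48 and 3.64 ± 0.864 CPM in treated and vehicle APPtg/CETPtg mice. The sialomucin Emcn was at 0.30 (SE 0.110) and Cd34 at 0.10 (SE 0.0997). Leukocyte ligands that inflammation raises were near 0, at 0.14 (SE 0.134) for Icam1 and 0.08 (SE 0.0712) for Vcam1. Mcam, found on endothelial cells and pericytes, was at 0.03 (SE 0.0944). Over the 34 partners, 7 had an unadjusted p under 0.05 by edgeR, and neither DESeq2 nor limma-voom called any.

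The genotypes differed in Tjp1. In vehicle mice it was at 105, 103, 106 and 106 CPM in CETPtg and at 93.1, 94.8, 95.6 and 96.0 CPM in APPtg/CETPtg animals. Under evacetrapib it was at 107, 101, 105 and 105 CPM in CETPtg and at 99.2, 95.7, 106 and 97.2 CPM in APPtg/CETPtg animals, where mouse G lay among the CETPtg mice. Over both treatments Tjp1 was lower in APPtg/CETPtg mice by a log2 fold change of -0.11 (SE 0.0289, edgeR adjusted p = 0.0124), a fold of 0.927. This was the only member called of 10, while 17.7% of all genes were. Every fit that left out 1 mouse kept the call, with adjusted p from 0.00194 to 0.0257. In vehicle mice alone the log2 fold change was -0.15 (SE 0.0399, edgeR adjusted p = 0.0234), where 10.4% of genes were called, and that call was lost without S3, without S5 and without the filter on low counts. Under evacetrapib it was -0.07 (SE 0.0399, edgeR adjusted p = 0.350), where no member passed and 2.99% of genes did. The difference between those values was 0.08 (95% interval -0.04 to 0.20).

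Cldn5 and Icam2 were higher in APPtg/CETPtg mice without passing the adjusted threshold. Cldn5 differed by 0.30 (SE 0.105, edgeR adjusted p = 0.0576), with 41.5 ± 7.25 against 31.0 ± 3.59 CPM under evacetrapib and 28.1 ± 7.04 against 25.1 ± 2.76 CPM under vehicle. Icam2 differed by 0.34 (SE 0.136, edgeR adjusted p = 0.0916). Vehicle mouse S5, low in both, bore on this, for without it Cldn5 was called at 0.37 (edgeR adjusted p = 0.00574) and Icam2 at 0.40 (edgeR adjusted p = 0.0415), and without S4 Cldn5 was called at 0.33 (edgeR adjusted p = 0.0393).

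The other 7 members had log2 fold changes between -0.11 and 0.12, with adjusted p from 0.331 to 0.467. Pecam1 was at 0.08 (95% interval -0.05 to 0.22), Cdh5 at -0.09 (-0.25 to 0.07) and Podxl at -0.08 (-0.18 to 0.03). For Jam2 the value was -0.11 over both treatments and -0.31 in vehicle mice (SE 0.119, edgeR adjusted p = 0.101). It passed in vehicle mice in the fits without F or S6, and without the filter on low counts, where it was the only member called.

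Among the partners 3 of 34 fell in APPtg/CETPtg mice and none rose, beside the 17.7% of all genes that were called. Ptprb changed by -0.27 (SE 0.0627, edgeR adjusted p = 0.00552), from 45.4 ± 6.44 to 36.4 ± 3.46 CPM in vehicle and from 51.8 ± 5.41 to 44.2 ± 1.24 CPM in evacetrapib mice, and stayed called without any 1 mouse. The neural cadherin Cdh2 changed by -0.12 (SE 0.0377, edgeR adjusted p = 0.0369) and the polarity scaffold Pals1, listed under its earlier symbol Mpp5, by -0.16 (SE 0.0497, edgeR adjusted p = 0.0353). The count was 1 without A, F or S1 and 5 without G. The call of Cdh2 was also lost without B, E, S5 or S8, without the filter on low counts and without a treatment term, and without S5 Ctnnb1 was called.

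Markers of endothelial and other brain cells are set beside the same comparison, with no test of a cell type as a whole. Of 8 oligodendrocyte markers 5 fell, of 8 astrocyte markers 2 fell and of 8 microglia markers 4 rose, of 11 pericyte markers 1 rose and 1 fell, of 8 neuron markers 1 rose and of 22 other endothelial markers 3 rose and 1 fell, beside the 17.7% of all genes that were called. Summed astrocyte markers were 2686 to 2858 CPM in CETPtg and 1972 to 2481 CPM in APPtg/CETPtg vehicle mice. Summed oligodendrocyte markers in the same groups were 4398 to 5116 and 3573 to 4723 CPM. The part of these cells, which express Tjp1 and Cdh2 too, in the genotype difference was not tested.

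**Figure D3:**
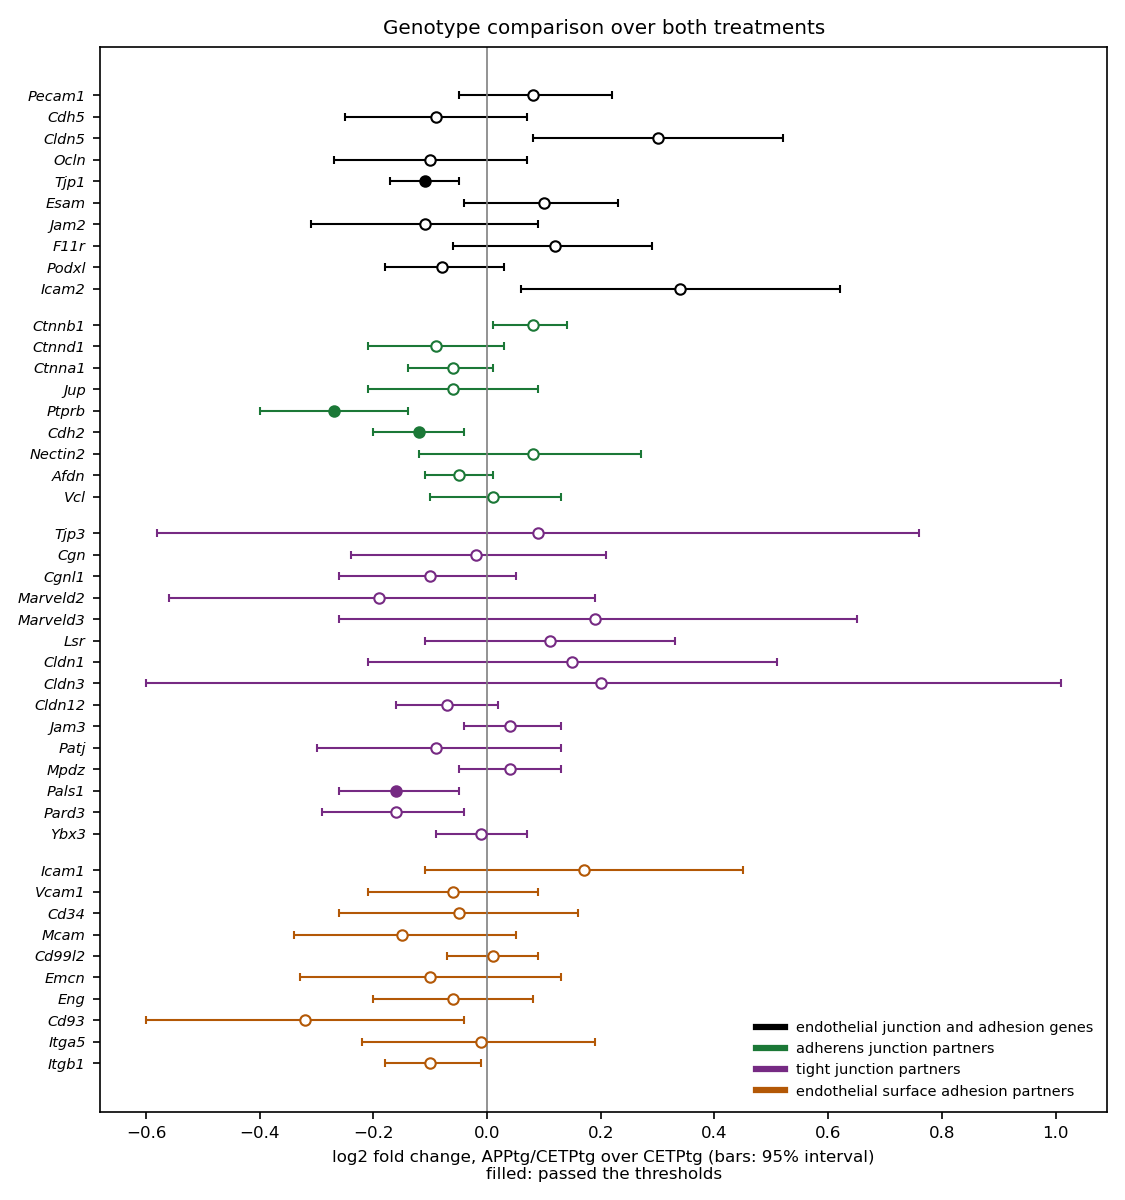
Log2 fold change of the 10 genes (black) and of their partners in adherens junctions (green), tight junctions (purple) and surface adhesion (orange), APPtg/CETPtg over CETPtg, with 95% intervals. Filled points passed the thresholds, namely Tjp1 at -0.11, Ptprb at -0.27, Cdh2 at -0.12 and Pals1 at -0.16.

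The evacetrapib effect was not shown to differ between genotypes for any of the 10 genes, nor for any of the 18609 genes by edgeR (0%), where 6.83% of genes and 1 member had an unadjusted p under 0.05. That member was Jam2, whose effect was -0.10 in CETPtg animals and 0.31 in APPtg/CETPtg animals, a difference of 0.41 (SE 0.168, 95% interval 0.05 to 0.76, edgeR adjusted p = 0.703). DESeq2 called 2 genes, none of them a member. The intervals were wide for Icam2, 0.38 (-0.17 to 0.93), and Cldn5, 0.24 (-0.19 to 0.68), and narrower for Podxl, -0.02 (-0.23 to 0.19), and Pecam1, -0.05 (-0.33 to 0.23).

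Divided by exon length, the members spanned a wide range of levels. Over the 16 mice Cldn5 was highest at 22.2 ± 5.70 CPM per kb of exon, followed by Tjp1 at 12.9 ± 0.630, Jam2 at 7.45 ± 1.12, Podxl at 7.44 ± 0.807 and Esam at 4.86 ± 0.463 CPM per kb. Cdh5 was at 3.78 ± 0.624, Pecam1 at 3.28 ± 0.476, F11r at 2.93 ± 0.370, Ocln at 1.51 ± 0.176 and Icam2 at 1.00 ± 0.239 CPM per kb. Neighbours in this order had separate ranges only between Tjp1 and Jam2, Podxl and Esam, and F11r and Ocln. Cldn5 exceeded Tjp1 and Esam exceeded Cdh5 in each of the 16 mice all the same, whereas Jam2 exceeded Podxl in 8 and Pecam1 exceeded F11r in 12.

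The 10 genes also varied together among mice of the same group. After the 4 group means were subtracted from log2 CPM, Pearson's r over the 16 mice was above 0 in 41 of 45 pairs of members, with a median of 0.41 and a range from -0.25 to 0.79. Over all pairs of the 18609 genes the median was 0.00, 49.8% were above 0 and 90% lay between -0.51 and 0.52. These values are a description, since all genes of a mouse share its library, its dissection and its scaling.

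Cdh5 with Cldn5 (0.79), Pecam1 with Podxl and with Esam (0.77 each), Pecam1 with Cdh5 (0.74) and Cdh5 with Podxl (0.73) were the closest pairs along with Cldn5 and Jam2 (0.73). Ocln and F11r took the least part, with a median r of 0.20 and 0.23 with the other 9, against 0.58 for Cdh5, 0.55 for Cldn5 and 0.50 for Pecam1 and for Podxl. The label of the list was checked in the same way against the 22 other endothelial markers. Their mean followed Pecam1 (0.88), Cdh5 (0.83) and Podxl (0.80) most closely, Cldn5 (0.67), Esam (0.64) and Tjp1 (0.55) less, and Ocln (0.48), Icam2 (0.41), F11r (0.35) and Jam2 (0.32) least. For 6 of the 10 genes the markers of another cell type gave a higher r than the endothelial ones. These were the astrocyte markers for Cdh5 (0.88), Cldn5 (0.88) and Jam2 (0.56), the fibroblast and meningeal markers for Icam2 (0.65), the microglia markers for F11r (0.57) and the oligodendrocyte markers for Ocln (0.51). For these 6 genes the check against the 22 markers did not single out endothelial cells. It hardly did so for Esam, with 0.64 against 0.63 for microglia markers, or for Tjp1, with 0.55 against 0.54 for astrocyte markers.

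**Figure D4:**
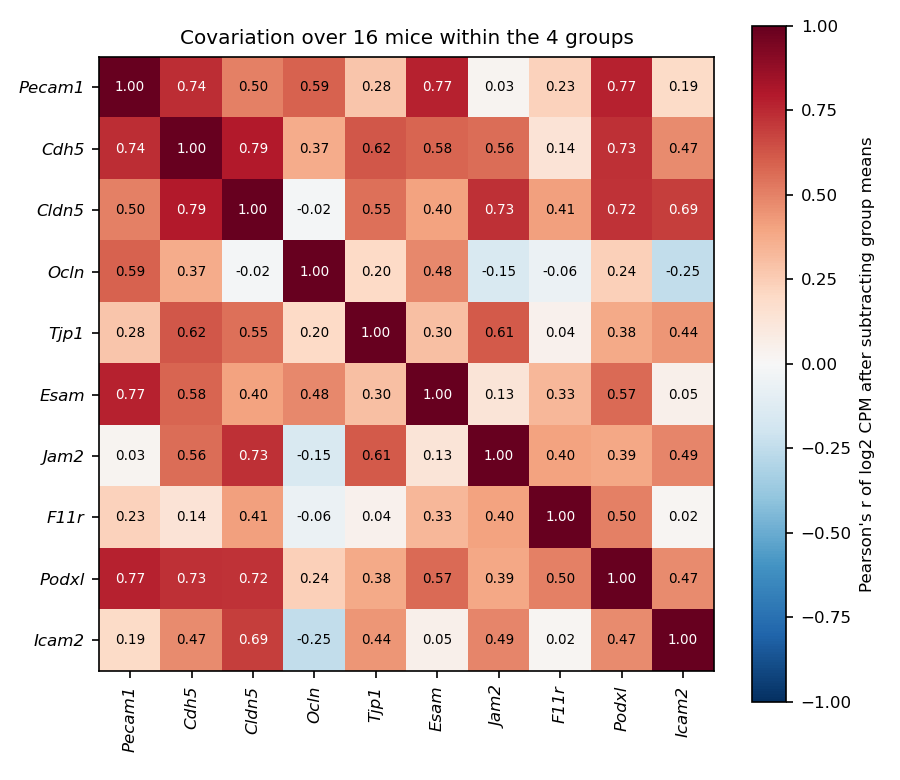
Pearson's r between the members' log2 CPM over 16 mice after subtracting the mean of each of the 4 groups, from -1 (blue) to 1 (red). Pecam1, Cdh5, Cldn5, Esam and Podxl form the reddest block, with r from 0.40 to 0.79, and Ocln has 4 values below 0.

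Among the genes outside the list, those most like the mean of the 10 over the 16 mice were Flt1 (r = 0.88) and Kdr (0.86), the receptors of vascular endothelial growth factor, followed by Mmp28 (0.84), Chrdl1 (0.84) and Bsg (0.83). Taken one by one, the closest gene was Flt1 for Pecam1 (0.91), Kdr for Cdh5 (0.95), Emp2 for Cldn5 (0.92), Dennd3 for Podxl (0.85) and Kank2 for Icam2 (0.87). It was Rasgrp3 for Tjp1 (0.85), Fhl4 for Esam (0.89), Dbndd2 for Ocln (0.92), Pcdhb18 for Jam2 (0.96) and Dynlrb1 for F11r (0.93). Each was picked as the highest over all genes tested.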

How the data were processed

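Poly(A) RNA from bulk brain of 16 mice was made into directional libraries and sequenced in pairs. Per the labels and the study's methods, the authors trimmed reads with Trimmomatic 0.39, aligned them to mm10 with STAR 2.7.8a, marked duplicates with Picard 2.0.1 and counted reads per gene with HTSeq; the annotation is not given in the sources used here. The deposited table holds these raw counts, not normalized. The authors called differentially expressed genes with DESeq2. For 0 columns could no mouse be assigned. Replicates are separate mice by their labels.

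A gene was tested where 4 or more mice had 10 or more counts, which left 18609. The counts were scaled by TMM and tested with the two-sided quasi-likelihood test of edgeR 4.0.16 (R 4.3.3), adjusted by Benjamini-Hochberg over all of them, at an adjusted p of 0.05 and a fold of 1.05, the study's thresholds. Comparisons over all mice carried a term for the other factor, and those within groups came from 1 fit with 4 group means. log2 CPM used a prior count of 2. The script was tested on simulated data. Alternatives were DESeq2 1.42.0 (Wald test, size factors), limma 3.58.1 (voom), other filters, other terms, fits of 1 genotype and each mouse left out. Exon lengths come from GENCODE M21, where 55227 of 55487 identifiers were found.

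The members and the gene lists were chosen with earlier results of these data known. Named are the members, 14 partners and any other partner called, the 5 genes most like the members' mean, and the gene most like each member. Myh11, Sele, Selp, Ppbp and Pard3 were named after their values were seen. Sequence of proteins and upstream sequence of 6 members was not used here. A listed partner gene is not reported here.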

Additional observations from a re-analysis of the deposited data

Results flagged for a closer look

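The highest and lowest mouse of each of 4 groups was set against the others for the 10 genes, 40 groups in all, and 3 held a mouse set apart by Dixon's test at its 95% critical value. Chance flags about 1 in 20 groups. Podxl was at 45.0 CPM in vehicle CETPtg mouse S4, against 36.0 to 36.6 CPM in the other 3 (gap 0.933 of the range). Esam was at 15.8 CPM in vehicle APPtg/CETPtg mouse S8, against 13.2 to 13.4 CPM in the other 3 (gap 0.923 of the range). Pecam1 was at 22.2 CPM in the same mouse, against 17.3 to 18.1 CPM in the other 3 (gap 0.837 of the range). All 3 were vehicle mice and lay toward the level of the treated mice of their genotype. S8 was also the most deeply sequenced mouse, and the part of depth in its values was not tested.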

How the results depend on the processing

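Among the 10 members, calls for evacetrapib over both genotypes numbered 0 in the edgeR analysis, beside 2 of 18609 genes. They numbered 4 without a filter on low counts, where the genes tested differ, beside 35 of 34733 genes. By DESeq2 they numbered 3 with a genotype term (56 of 17884 genes) and 3 without it (20 of 22612 genes). When 1 mouse was left out they numbered 0 to 1, beside 0 to 8 of 18412 to 18597 genes. Without the filter 1 member, Cldn5, was called within APPtg/CETPtg mice (88 of 34733 genes) and between genotypes under evacetrapib (661 genes). Between genotypes over both treatments 2 were called, Cldn5 (0.29, edgeR adjusted p = 0.0204) and Tjp1, beside 2752 genes. Under vehicle the fit without the filter called Jam2 in place of Tjp1, again 1 member, beside 1672 genes. The cause was not tested. Leaving out 1 mouse gave 1 to 3 members between genotypes over both treatments, beside 2503 to 3590 genes. Under vehicle it gave 0 to 2 members, beside 909 to 1998 genes. The counts for partners were added after seeing the data. They ranged from 1 to 5 between genotypes on leaving out 1 mouse (5 without G, adding Pard3 and Cd93 to the 3) and were 0 for evacetrapib in every fit. The difference between the genotypes in the evacetrapib effect changed sign where it was near 0. For Esam it was 0.00 on requiring 10 counts in every mouse, and leaving out 1 mouse gave -0.07 to 0.07 for Esam, -0.14 to 0.05 for Pecam1 and -0.10 to 0.03 for Podxl. In the evacetrapib comparison, members near 0 changed sign as well when 1 mouse was left out, with -0.03 to 0.07 for F11r over both genotypes and, within CETPtg mice, -0.08 to 0.15 for Icam2 and -0.02 to 0.01 for Tjp1. No paired analysis was possible because the labels give the mice of different groups no shared replicate numbers. With 4 mice per group, differences of the size of Icam2's SD were poorly resolved.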
